A study of Mus musculus with 5 samples.

Results

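The cells described here were taken as macrophages of the mouse temporomandibular joint (TMJ) disc and carry RNA of complement C1q together with RNA of classical MHC class II. They were chosen on measured values in droplet single-cell RNA-seq. A cell was taken when mitochondrial genes held at most 30% of its unique molecular identifiers (UMIs, each one captured RNA molecule), when C1qa, C1qb and C1qc together had at least 3 UMIs, when Tyrobp or Fcer1g had at least 1 UMI, when the endothelial gene Cdh5 had 0 UMIs, and when H2-Aa, H2-Ab1 and H2-Eb1 together had at least 2 UMIs. The rule found 188 cells among 51688 retained cells of 51948 barcodes. The 3 d library gave 2 of these cells, the 3 w and 16 w libraries 14 each, the 78 w library 82 and the injured disc 76. The levels of the C1q and class II genes in these cells follow from the rule and are given as a description.

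The study followed the TMJ disc through growth, ageing and injury with 1 library per condition. All 5 libraries were labelled as wild-type C57BL/6 disc. Untreated mice were 3 days, 3 weeks, 16 weeks or 78 weeks old, and the injured mice were 7 weeks old, with the anterior band of the disc damaged by a needle at 5 weeks of age and the tissue taken 2 weeks later. Pups of both sexes were pooled at 3 d and males were used at 3 w, 16 w and 78 w, according to the methods, and the number of animals behind a library was not given in the sources used here. In the injured library Xist had a UMI in 73.7% of retained cells and the Y-linked genes Ddx3y, Eif2s3y and Kdm5d had 0 UMIs, whereas at 3 w Xist had a UMI in 0.117% of cells and Ddx3y in 72.8%. Injury and this difference in Xist and Y-linked RNA cannot be told apart. The methods describe the injury in mice carrying Myh11-CreER and a tdTomato reporter, a driver for smooth muscle and mural cells, and give these mice as male. They also describe it in female C57BL/6 mice without GFP that were used for parabiosis. The library itself was labelled wild-type. With 1 library per condition no difference between conditions can be tested, and every interval below covers counting error only.

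C1q is the recognition part of the classical complement pathway and is made by tissue macrophages. MHC class II molecules are pairs of an alpha and a beta chain that present peptides from engulfed protein to CD4+ T cells. The invariant chain, encoded by Cd74, guards the peptide groove during transport, and H2-DM, encoded by H2-DMa and H2-DMb1, exchanges the remaining fragment for an antigenic peptide. Tissue macrophages are often divided into a perivascular kind with LYVE1 and little class II, and a kind with much class II that is partly renewed from blood monocytes through the receptor CCR2.

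The C1q and class II genes of the rule lie in 2 clusters of GRCm38. H2-Ab1 (chr17:34257689-34269419, plus strand), H2-Aa (chr17:34282744-34287823, minus strand) and H2-Eb1 (chr17:34305867-34316674, plus strand) are neighbours on chromosome 17. C1qb (chr4:136880129-136886187), C1qc (chr4:136889804-136893065) and C1qa (chr4:136895917-136898803) follow each other on the minus strand of chromosome 4. Class II genes share a promoter module, in which the X1 box and the Y box bind factors that recruit the transactivator CIITA. The 140 bases before the starts of H2-Aa and H2-Eb1, from RefSeq, are shown because this module is what the class II genes have in common by sequence. They are written 5′ to 3′ on the strand of the gene, build GRCm38.p6, and capitals mark the cores searched for on both strands, AGNAAC for the X1 box and ATTGG, or its reverse complement CCAAT, for the Y box.
H2-Aa, chr17:34287824-34287963: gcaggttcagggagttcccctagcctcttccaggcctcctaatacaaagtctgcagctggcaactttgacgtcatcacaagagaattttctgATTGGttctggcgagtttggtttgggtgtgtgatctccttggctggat
H2-Eb1, chr17:34305727-34305866: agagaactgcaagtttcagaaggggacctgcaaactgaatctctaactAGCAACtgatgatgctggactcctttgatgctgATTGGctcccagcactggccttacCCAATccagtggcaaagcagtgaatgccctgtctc
Both windows hold ATTGG, and the H2-Eb1 window also holds AGNAAC upstream of it, while these letters are not in the H2-Aa window. Among 32851 RefSeq promoters of 300 bases, 37.4% hold the Y core on either strand, 48.1% the X1 core and 18.5% both, so either core alone is common. A match is a description of letters and not a site.

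Depth differed between libraries and set what the UMI thresholds could find. The 5 libraries held 125130270, 125427849, 88998394, 105309834 and 31585993 UMIs in the order 3 d, 3 w, 16 w, 78 w and injured. The class II C1q macrophages had a median of 17486, 10562.5, 11005.5, 8767.5 and 2886.5 UMIs per cell in the same order. The injured cells were thus the shallowest, and 3 of them lay under the 1000 UMIs to which cells were thinned for comparison. Stromal RNA also differed. Genes of disc fibroblasts and fibrochondrocytes (a list of 12 genes with Col1a1, Sparc and Dcn) held more than 5% of UMIs in 0, 1, 1, 1 and 21 of these cells, which is 27.6% of the injured cells. Among C1q macrophages low in class II the share was 24.3% in the injured library. A barcode sequence present in another library was found in 2 of the 188 cells.

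Class II C1q macrophages were a larger share of the disc at 78 w and after injury than at 3 w or 16 w. They made up 0.0134% of retained cells at 3 d (95% interval 0.00162 to 0.0483, exact Clopper-Pearson), 0.149% at 3 w (0.0817 to 0.251) and 0.16% at 16 w (0.0873 to 0.268). At 78 w they made up 0.811% (0.645 to 1.01) and in the injured disc 0.898% (0.708 to 1.12). The intervals of 78 w and injured overlapped each other and lay above those of 3 d, 3 w and 16 w. After every cell was thinned to 1000 UMIs the shares were 0.0538%, 0.069%, 0.291% and 0.552% from 3 w to injured. At 3 d 0 of 13620 thinned cells met the rule, where a count of 0 allows a share of up to 0.022% (3 counts of the total; the upper bound of the exact Clopper-Pearson interval is 0.0271%).

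Within the C1q macrophages, 31.8% met the class II threshold at 78 w (82 of 258 cells, 26.1 to 37.8), the highest share of the 5 libraries. The share was 0.766% at 3 d (2 of 261, 0.0929 to 2.74), 6.28% at 3 w (14 of 223, 3.47 to 10.3) and 15.1% at 16 w (14 of 93, 8.48 to 24). In the injured disc it was 15.2% (76 of 500, 12.2 to 18.7), within the interval of 16 w. C1q macrophages as a whole were 5.91% of injured cells against 1.06% at 16 w and 2.55% at 78 w. The injured library therefore held many class II C1q macrophages beside many more that were low in class II. Thinned to 1000 UMIs, the share was 14.1% at 78 w (9.68 to 19.7) and 14% in the injured disc (10.3 to 18.4), so that each lay within the interval of the other. At 3 w the thinned share was 2.66% and at 16 w 8.22%. Cells under 1000 UMIs were left out (71 low and 3 class II cells of the injured library, against 3 and 0 at 78 w), and other cells no longer met the C1q rule, so that the C1q macrophages went from 500 to 300 cells in the injured disc and from 258 to 205 at 78 w.

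Stromal cells gave the background of class II UMIs outside leukocytes, and its source was not tested. Stromal cells with at least 2 class II UMIs were 0.381% at 3 d, 1.87% at 3 w, 0.193% at 16 w, 0.815% at 78 w and 0.305% in the injured disc, at median depths of 8106, 13105, 9522, 9842 and 3491.5 UMIs per cell. From 3 w on, the share among C1q macrophages was above this background. At 3 d the background lay inside the interval of the C1q macrophages, and the 2 cells found there are not read as a population. Leukocytes without any C1q UMI met the class II threshold in 6 of 47 cells at 3 d, in 4 of 4 cells at 3 w, in 8 of 11 cells at 16 w, and in 7 of 14 cells both at 78 w and in the injured disc, so class II RNA was not particular to C1q macrophages.

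**Figure D1:**
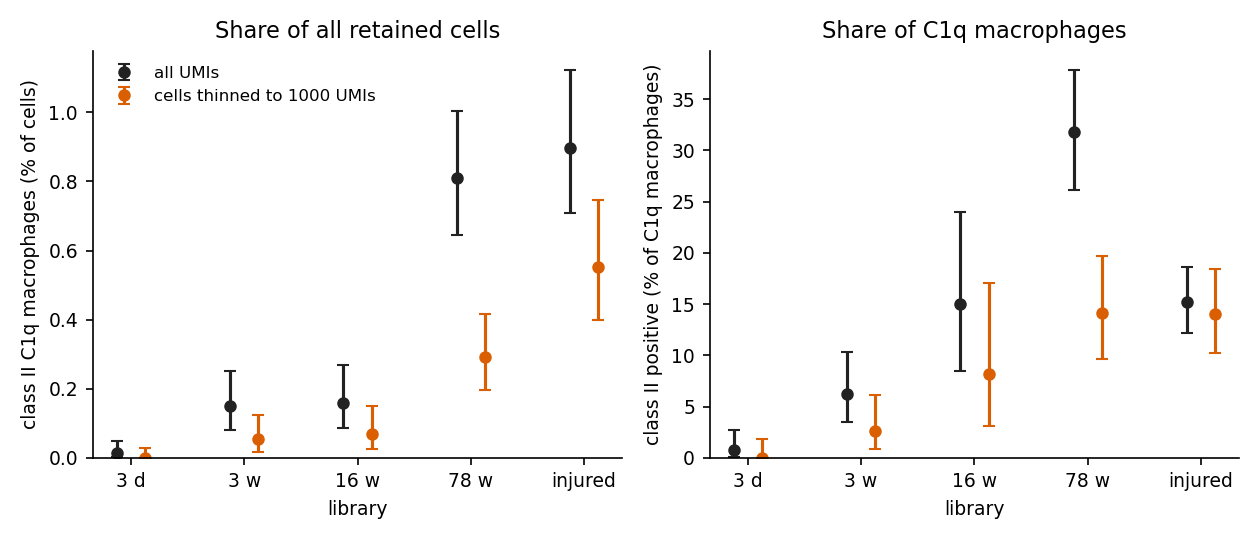
Share of class II C1q macrophages among all retained cells (left, %) and among C1q macrophages (right, %) in each library, with exact 95% intervals as bars. Black points use all UMIs and orange points cells thinned to 1000 UMIs; on the right the 78 w point falls from 31.8% to 14.1%, beside 14% in the injured library.

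Single cells differed widely in their class II RNA. The sum of H2-Aa, H2-Ab1 and H2-Eb1 ran from 2 to 699 UMIs at 3 w (median 22.5), from 2 to 857 at 16 w (median 53.5), from 2 to 1256 at 78 w (median 17) and from 2 to 133 in the injured disc (median 14). The 2 cells of 3 d had 2 and 12 UMIs. Scaled to the depth of each cell, the median was 3484, 3875, 1922 and 6769 CPM from 3 w to injured. From 3 w on, the injured cells thus had the lowest median in UMIs and the highest in CPM. The threshold of 2 UMIs is a higher level in CPM in a shallower cell. A few cells carried most of the RNA in the small samples, since the 5 highest cells held 95.1% of class II UMIs at 3 w and 90.9% at 16 w, against 38% at 78 w and 24.8% in the injured disc. Cells with at least 100 class II UMIs numbered 4, 4, 25 and 3 from 3 w to injured. Just inside the threshold lay the cells with exactly 2 UMIs, of which there were 3 at 3 w, 4 at 16 w, 13 at 78 w and 12 in the injured disc. Just outside it lay 12, 11, 35 and 26 cells with 1 UMI.

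**Figure D2:**
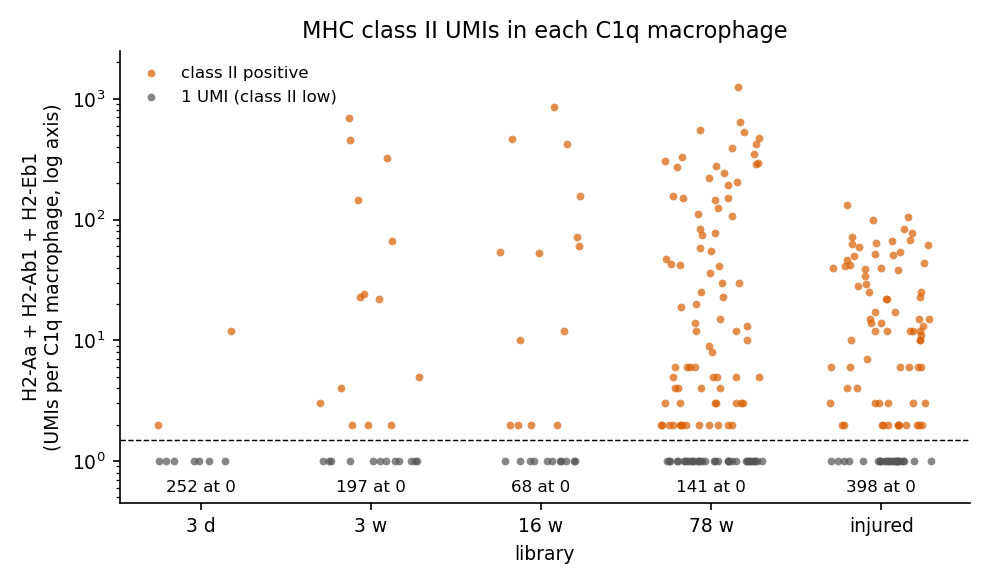
Summed H2-Aa, H2-Ab1 and H2-Eb1 UMIs (log axis) of each C1q macrophage by library, with class II positive cells in orange, cells with 1 UMI in grey and the number at 0 written below. The dashed line is the threshold; cells spread from 2 UMIs up to 1256 at 78 w, and the injured cells stop at 133.

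The 3 class II chains rose and fell together across cells. Spearman's rho between H2-Ab1 and H2-Eb1 over cells of 1 library was 0.86 at 3 w (14 cells), 0.925 at 16 w (14 cells) and 0.908 at 78 w (82 cells), as a description over cells that share a library. Summed over the class II C1q macrophages, H2-Aa stood at 257, 3695, 4062, 3629 and 1908 CPM (UMIs scaled to a sum of 1000000 over these cells) from 3 d to injured. H2-Ab1 stood at 114, 3212, 4910, 3703 and 1480 CPM, and H2-Eb1 at 28.6, 3421, 4567, 3735 and 1833 CPM. Over all these cells the injured level of each gene was below that of each library from 3 w to 78 w. This order depended on the cells kept. With stromal genes at most 5% of UMIs, H2-Aa stood at 4292, 4583, 3692 and 4075 CPM from 3 w to injured. H2-Ab1 stood at 3718, 5544, 3760 and 3157 CPM and H2-Eb1 at 3975, 5247, 3789 and 4035 CPM. In cells with C1q at 1000 CPM or more, H2-Aa stood at 1768, 2230, 2836 and 3436 CPM. H2-Ab1 stood at 1380, 2415, 2813 and 2659 CPM there and H2-Eb1 at 1477, 2199, 3034 and 3298 CPM. The injured level was then the highest for H2-Aa and H2-Eb1. C1qa, the A chain of C1q, stood at 944, 1882, 2268, 3381 and 1028 CPM.

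The label of macrophage was checked on the summed cells. A list of 14 macrophage genes stood together at 13353, 17805, 15090, 17193 and 7431 CPM from 3 d to injured, against 302, 500, 551, 667 and 443 CPM in stromal cells, and its most abundant gene was Lyz2, encoding lysozyme, at 8178, 11333, 9813, 10876 and 4019 CPM. At 3 d Mertk was at 0 and from 3 w on each of the 14 genes had UMIs. In low C1q macrophages the 14 genes stood together at 5523, 17366, 14736, 21828 and 10505 CPM. This was above the class II cells at 78 w and in the injured disc. Csf1r, the receptor for the macrophage growth factor CSF1, stood at 458, 447, 399, 396 and 252 CPM in the class II cells. The cells with the most class II RNA were less clear. The highest cell had 699 class II UMIs and 15 C1q UMIs at 3 w, 857 and 6 at 16 w, 1256 and 7 at 78 w, and 133 and 29 in the injured disc. C1qa was at 0 in 2 of 4, 1 of 4, 5 of 25 and 0 of 3 of the cells with at least 100 class II UMIs from 3 w to injured. C1q held under 1000 CPM of a cell's UMIs in 2, 2, 4 and 10 class II cells, and these held 65.1%, 59%, 27.8% and 1.99% of all class II UMIs. Whether each of these cells was a macrophage was not tested, and for part of the results below the values are given also without such cells in both classes, a limit chosen after seeing the data.

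Markers of other leukocytes were found in part. A list of 7 neutrophil genes had 0 UMIs in 4 libraries and 3 at 78 w, and a list of 5 mast cell genes had 1 UMI in all 5 libraries together. Of the lymphoid list the interleukin-7 receptor gene Il7r was present at 343, 163, 218, 163 and 130 CPM, while Cd3e, Cd3d, Cd79a, Ms4a1 and Nkg7 were at 0 throughout. Of 12 dendritic cell genes 3, 7, 8, 9 and 9 had UMIs from 3 d to injured. They stood together at 114, 267, 611, 423 and 153 CPM, against 82.2, 94.8, 82.6, 134 and 69 CPM in low C1q macrophages. The most abundant was Clec4b1 at 3 d (57.2 CPM), Clec10a at 3 w (69.7 CPM) and Mgl2 from 16 w on (280, 208 and 57.1 CPM). Of the defining genes Xcr1 was at 0 in every library, Clec9a had 1 UMI, Flt3, the growth factor receptor of dendritic cells, had 1, 3, 1, 4 and 1 UMIs, and Zbtb46 had 0, 2, 4, 2 and 1. Cd209a, a lectin of monocyte-derived dendritic cells, had 0, 4, 20, 56 and 5 UMIs. Of 10 monocyte genes 4, 5, 5, 7 and 6 had UMIs, and Ly6c2 and Plac8 were at 0 in every library. The list stood at 1201, 563, 629, 961 and 2433 CPM, against 416, 912, 549, 1251 and 2070 CPM in low C1q macrophages and 1287, 1791, 2078, 4698 and 3355 CPM in stromal cells. Its most abundant gene was Ccr2 at 3 d (572 CPM) and Fn1, the fibronectin gene, from 3 w on (412, 361, 807 and 2285 CPM). The part of these cell types in the results was not tested. Malat1 and Fth1 were the most abundant genes that were neither mitochondrial nor ribosomal, by mean over the 5 libraries.

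The next question was what else set these cells apart from the C1q macrophages with 0 or 1 class II UMIs in the same libraries. UMIs were summed per class and library, the 9 genes of the rule were taken out, and edgeR's quasi-likelihood test was run with the library as a block. The 3 d library had too few cells, so 4 libraries and 8 sums entered, and the spread is that between libraries of different age and treatment. The levels in this comparison are CPM after the rule genes were taken out. Among 7112 genes tested, 84 were higher (1.18%) and 33 lower (0.464%) in the class II cells at an adjusted p under 0.05 by the Benjamini-Hochberg method, and the median log2 fold change over all genes was -0.01. A gene could enter the test through its UMIs in 1 class alone. Cd74, H2-DMa, Il1b, Il7r, Slc7a11, Traf1, Cytip and Mgl2 could do so through the class II cells. Lyve1, Vsig4, 1810011O10Rik, Dlk1 and Syngr1 could do so through the low cells. The test values of these genes are therefore given as a description. The class II cells had more RNA of Cd74, H2-DMa and H2-DMb1, of Il1b, and of the monocyte and dendritic cell genes Ccr2, Napsa, Clec4b1, Mgl2 and Clec10a, and less RNA of Lyve1 and 6 other genes of perivascular macrophages. In the cells of both classes with C1q at 1000 CPM or more, 42 genes were higher and 17 lower, of which 42 and 14 were among the 84 and 33. Clec4b1, Napsa, Plbd1 and Il1a then had too few UMIs to be tested, and Clec10a, Folr2, Cbr2 and Cfp lost the call (edgeR adjusted p = 0.0817, 0.0709, 0.0944 and 0.0578). Both classes had alike depth, with medians of 10899, 10719, 9592.5 and 2530.5 UMIs per low cell from 3 w to injured.

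Of the genes that serve class II loading, Cd74 showed the strongest difference. It stood at 10182, 12221, 9643 and 5101 CPM in class II cells and at 6.54, 29.5, 30.4 and 39.5 CPM in low cells of 3 w, 16 w, 78 w and injured, with no overlap between classes. The log2 fold change was 8.66 (SE 0.45, edgeR adjusted p = 9.66e-08, higher in 4 of 4 libraries). H2-DMb1 stood at 255, 248, 244 and 179 CPM against 12.3, 15.3, 15.8 and 15.9 CPM, a log2 fold change of 4.09 (SE 0.21, edgeR adjusted p = 9.66e-08). Over all cells these were even levels in both classes from library to library. With C1q at 1000 CPM or more H2-DMb1 was less even in the class II cells, at 82.1, 177, 172 and 315 CPM of all UMIs. H2-DMa stood at 397, 465, 316 and 81.4 CPM against 7.7, 4.08, 27.2 and 14 CPM, a log2 fold change of 4.52 (SE 0.44, edgeR adjusted p = 4.57e-05). They were the 3 of 7 tested members of the class II loading list that passed, and the list's median log2 fold change was 0.19. The other members included Ctss, the protease that trims the invariant chain, at 1344, 923, 1066 and 536 CPM against 1178, 1109, 1473 and 720 CPM, and Ifi30, a thiol reductase of the lysosome, with an edgeR adjusted p of 0.711. None of 8 tested MHC class I genes and none of 6 tested co-stimulatory genes passed in edgeR or in DESeq2, with 2 and 3 at an unadjusted edgeR p under 0.05 (818 of all 7112 genes, 11.5%) and medians of 0.15 and 0.53. Among the latter, Cd86, a ligand of CD28, had a log2 fold change of 0.17 (SE 0.2, edgeR adjusted p = 0.827).

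Cytokine and receptor genes followed. Il1b, the gene of interleukin-1 beta, stood at 1273, 688, 501 and 171 CPM in class II cells against 113, 3.06, 17.9 and 9.56 CPM in low cells, a log2 fold change of 4.68 (SE 0.38, edgeR adjusted p = 9.9e-06). The lowest class II level was above the highest low level. With C1q at 1000 CPM or more the log2 fold change was 3.44 (edgeR adjusted p = 0.00166), from 351, 331, 166 and 305 CPM in the class II cells. Over all class II cells the UMIs came from few cells, with Il1b in 4 of 14 class II cells at 3 w and 6 of the 14 cells at 16 w, in 16 of 82 cells at 78 w and in 18 of 76 cells of the injured disc. Il7r stood at 166, 223, 167 and 131 CPM against 3.85, 11.2, 8.15 and 15.9 CPM, a log2 fold change of 4.29 (SE 0.31, edgeR adjusted p = 2.92e-06). Areg, which encodes the growth factor amphiregulin, had a log2 fold change of 3.24 (SE 0.27, edgeR adjusted p = 1.23e-05). Il1a rose by 2.57 (SE 0.53) and lost the call without the 16 w library (edgeR adjusted p = 0.121). Il1b and Il1a were the 2 called of 19 tested chemokine and cytokine genes, whose median was 0.22.

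Further genes among the 10 with the smallest p were Slc7a11, the cystine transporter, with a log2 fold change of 3.52 (SE 0.23), and Traf1, an adaptor of TNF receptors, with 3.52 (SE 0.33). Cytip, which binds cytohesin in leukocytes, had 3.54 (SE 0.33) and Clec4b1, a C-type lectin of dendritic cells, 5.84 (SE 0.49). Plbd1 was at 71, 95.5, 37.3 and 18.4 CPM in class II cells, while low cells had 0 UMIs in 3 libraries and 0.637 CPM in the injured disc (edgeR adjusted p = 8.37e-06). Clec4b1 stood at 0.385, 1.02, 1.09 and 0.637 CPM in low cells. Both genes could reach the test through their UMIs in the class II cells alone, so their values are a description. All 10 genes were higher in 4 of 4 libraries and passed with each library left out.

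Genes known from dendritic cells and monocytes were higher in part. Of 12 dendritic genes 5 had enough UMIs to be tested, and Clec4b1, Mgl2 and Clec10a were higher. A gene could reach the test through its UMIs in the class II cells alone, so this count is a description. Mgl2, a galactose lectin, stood at 71, 287, 213 and 57.8 CPM against 20, 33.6, 50.5 and 1.27 CPM, a log2 fold change of 2.77 (SE 0.31, edgeR adjusted p = 0.000211). Clec10a rose by 1.66 (SE 0.38, edgeR adjusted p = 0.0428) and lost the call without 16 w or without 78 w, where the higher adjusted p was 0.163. Cd209a did not pass in edgeR (adjusted p = 0.0635) and was called by DESeq2, at 23.7, 127, 69.6 and 13.1 CPM against 0, 0, 30.4 and 0 CPM. Of 10 monocyte genes 4 were tested, and Ccr2 and Napsa were higher. The other tested members, Fn1 and Vcan, did not pass, with log2 fold changes of -0.29 and -0.33. Ccr2 and Napsa, too, could reach the test through the class II cells alone, so this count is likewise a description. Ccr2 stood at 65.1, 121, 88.3 and 76.1 CPM against 1.15, 0, 9.24 and 37 CPM, a log2 fold change of 3.14 (SE 0.6, edgeR adjusted p = 0.0158). The low cells of the injured disc had more Ccr2 than low cells elsewhere. Napsa, an aspartic protease, lost the call without 3 w (edgeR adjusted p = 0.0586).

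Retnla, which encodes the secreted protein RELM-alpha, was high in class II cells of 3 libraries and at 0 in the fourth. It stood at 3321, 4101, 3379 and 0 CPM against 5.39, 139, 178 and 0 CPM, a log2 fold change of 5.81 (SE 0.66, edgeR adjusted p = 0.000343, higher in 3 of 4 libraries). At 3 w, 95.9% of its UMIs came from 1 cell. With C1q at 1000 CPM or more Retnla stood at 164, 2330, 3437 and 0 CPM in the class II cells, a log2 fold change of 4.4 (edgeR adjusted p = 2.03e-07).

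Genes of perivascular and resident macrophages were lower. Of 12 tested, 7 were lower and none higher, and the list's median log2 fold change was -0.91. Lyve1, the hyaluronan receptor, stood at 59.2, 287, 624 and 10.5 CPM in class II cells against 393, 1359, 1760 and 122 CPM in low cells, a log2 fold change of -2.00 (SE 0.24, edgeR adjusted p = 0.000385). The classes differed within each library, but the class II level at 78 w was above the low level at 3 w. Vsig4, a receptor for complement fragments, stood at 0, 140, 118 and 10.5 CPM against 157, 295, 566 and 108 CPM, a log2 fold change of -2.09 (SE 0.33, edgeR adjusted p = 0.00418), and was not called by DESeq2. Stab1, a scavenger receptor, fell by 1.25 on the log2 scale (SE 0.2, edgeR adjusted p = 0.00354), and was not called after thinning to 1000 UMIs. F13a1, which encodes a coagulation factor subunit, fell by 1.04 (SE 0.2, edgeR adjusted p = 0.0145), and lost the call without 3 w or without the injured library, where the higher adjusted p was 0.0593.
Folr2, a folate receptor, fell by 0.93, Cbr2, a carbonyl reductase, by 0.96 and Gas6, a bridge to dying cells, by 0.88 on the log2 scale. Each lost its call in 2 or 3 of the fits that left out a library, with highest edgeR adjusted p of 0.0742, 0.114 and 0.0679. Folr2 was lost without 3 w or injured, Gas6 without 3 w or 16 w, and Cbr2 without 3 w, 16 w or injured. Cbr2 was also not called by DESeq2. The mannose receptor gene Mrc1 and the haemoglobin scavenger gene Cd163 did not pass, with log2 fold changes of -0.25 (SE 0.18) and -0.80 (SE 0.26).

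The other lower genes among the 10 with the smallest p were not of this list. Dlk1, a Notch-related membrane protein, and Syngr1, a vesicle protein, each had a log2 fold change of -2.89 (SE 0.38 and 0.43). Fxyd2, which modulates the sodium pump, stood at 142, 357, 587 and 123 CPM against 296, 832, 1505 and 372 CPM, a log2 fold change of -1.17 (SE 0.16, edgeR adjusted p = 0.000906). 1810011O10Rik had a log2 fold change of -2.11, the ubiquitin ligase gene Wwp1 -1.27 and the Fc receptor gene Fcgrt -0.84. All of these were lower in 4 of 4 libraries.

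General macrophage genes differed little. Of 14 tested, Cd14, a co-receptor for endotoxin, was higher at 1468, 885, 952 and 402 CPM against 596, 360, 506 and 249 CPM, a log2 fold change of 1.19 (SE 0.16, edgeR adjusted p = 0.000754). The list's median was -0.09. Of the tested complement genes beyond C1q, Cfp, which encodes properdin, was higher (log2 fold change 1.42) and lost its call without 3 w or 16 w, with a highest edgeR adjusted p of 0.0802. None of 10 lysosomal, 8 interferon-response, 12 immediate-early, 6 cell-cycle or 12 stromal genes passed in edgeR or in DESeq2, with 4, 1, 1, 4 and 3 at an unadjusted edgeR p under 0.05, beside 11.5% of all genes tested. The medians of these lists were -0.33, 0.22, -0.07, 1.18 and 0.03 in the same order. The 4 cell-cycle genes under that p were Top2a, Birc5, Mki67 and Stmn1, with log2 fold changes of 1.95, 1.46, 1.23 and 0.81. Lgals3, encoding galectin-3, was the 1 called of 12 lipid-associated genes (0.67, SE 0.15) and was lost without 3 w, 16 w or 78 w (highest edgeR adjusted p = 0.213).

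**Figure D3:**
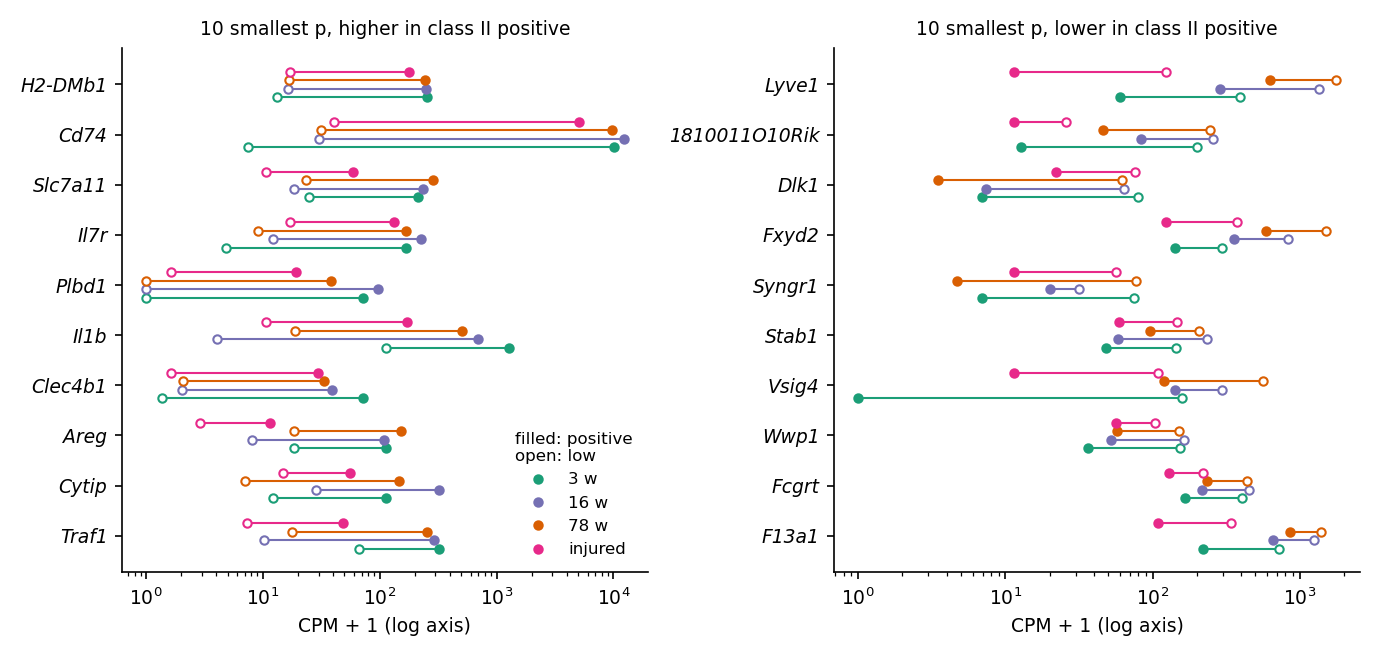
Level in class II positive (filled) and class II low (open) C1q macrophages of 4 libraries for the 10 genes with the smallest p in each direction, as CPM + 1 on a log axis after removal of the rule genes. Each line joins the classes of 1 library; the filled point lies right of the open one for all 10 genes on the left panel and left of it for all 10 on the right.

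The same genes were then followed over 4 bands of class II UMIs, as a description of C1q macrophages cut by the rule's own measure. Cd74 stood at 6.59, 5.01, 78.2 and 20722 CPM in cells with 0, 1, 2 to 9 and at least 10 class II UMIs at 3 w. It stood at 14.5, 83.2, 550 and 16384 CPM at 78 w, and at 32.7, 92.9, 459 and 11158 CPM in the injured disc. The step from 2 to 9 to at least 10 UMIs was thus the largest, and 8, 10, 47 and 49 cells from 3 w to injured lay above it. Il1b stood at 869 CPM in the highest band at 78 w, against 5.53 CPM in cells with 2 to 9 and 12.4 CPM in cells with 0. With C1q at 1000 CPM or more the highest band held 6, 8, 43 and 48 cells from 3 w to injured. Its Cd74 level was then 12345, 6976, 14823 and 11835 CPM, and its Il1b level 1055, 405, 314 and 393 CPM, from 2, 3, 10 and 15 cells. Ccr2 reached 133, 142, 126 and 133 CPM in this highest band from 3 w to injured over all cells, and 112, 77.2, 88.5 and 142 CPM under the C1q limit. In cells with 0 class II UMIs it was at 1.24, 0, 11.7 and 39.1 CPM.
Lyve1 fell in steps, from 401 over 240 and 89.4 to 24.2 CPM at 3 w, from 1386 over 1109 and 909 to 157 CPM at 16 w, and from 1817 over 1436 and 1020 to 288 CPM at 78 w. In the injured disc it was low in every band, from 133 CPM at 0 class II UMIs to 6.06 CPM in the highest. C1qa itself stood at 956, 1670 and 2326 CPM in the highest band at 3 w, 16 w and 78 w, against 2776, 3322 and 5160 CPM in cells with no class II UMI. In the injured disc it stood at 1628, 662, 600 and 1599 CPM over the 4 bands, and the stromal gene Dcn stood at 5304, 7229, 8307 and 4319 CPM there. Under the C1q limit, which sets a floor on this measure, C1qa stood at 1773, 2152, 2714 and 1702 CPM in the highest band from 3 w to injured.

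**Figure D4:**
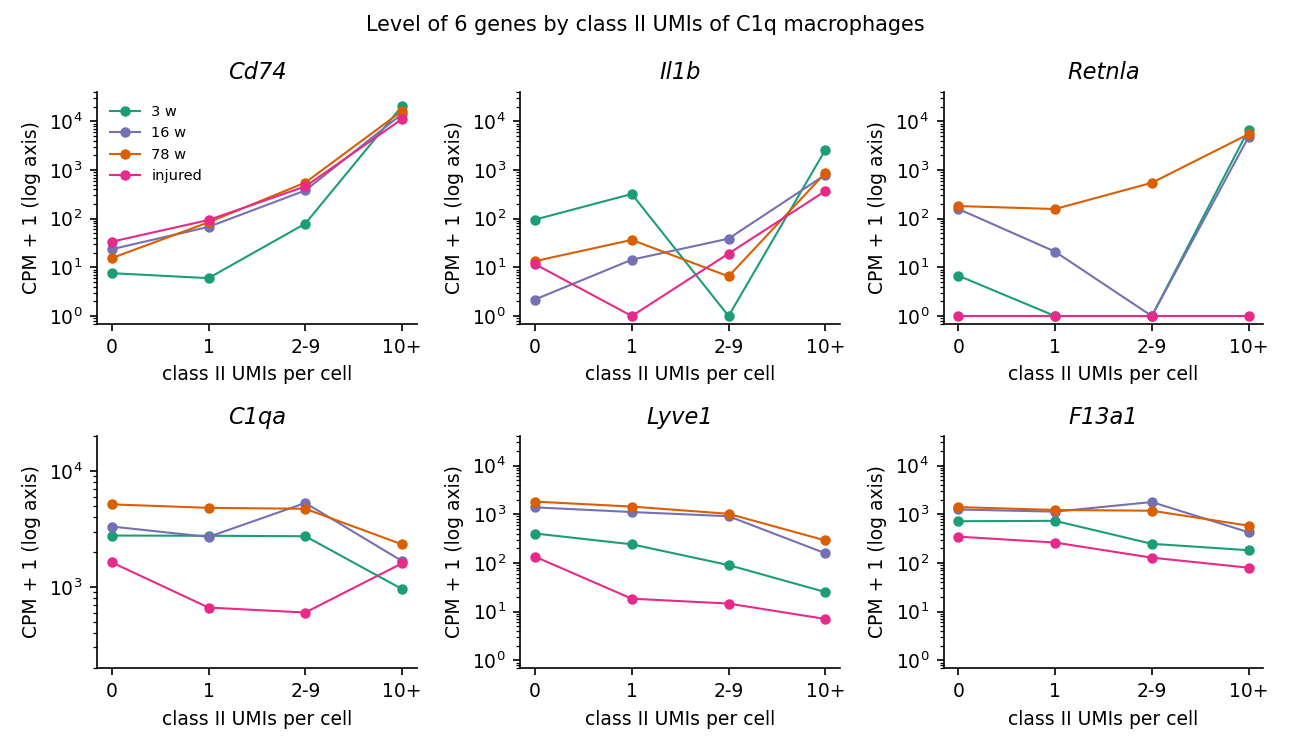
Level of 6 genes (CPM + 1, log axis) in C1q macrophages by class II UMIs per cell (0, 1, 2 to 9, at least 10), 1 line per library. Cd74 climbs to between 11158 and 20722 CPM in the highest band in every library, Lyve1 falls, and Retnla climbs in 3 libraries and lies at 0 CPM in all 4 bands of the injured one.

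Across single class II cells the relations are a description, since the rule chose the cells on class II and C1q. Spearman's rho of class II CPM with Cd74 CPM was 0.969 at 3 w, 0.912 at 16 w, 0.936 at 78 w and 0.93 in the injured disc (14, 14, 82 and 76 cells). With C1qa it was -0.70, -0.56 and -0.45 at 3 w, 16 w and 78 w and 0.34 in the injured disc. With Lyve1 it was -0.09, -0.76, -0.56 and -0.19. Under the C1q limit (12, 12, 78 and 66 cells) it was 0.957, 0.867, 0.929 and 0.914 with Cd74, -0.55, -0.29, -0.38 and 0.04 with C1qa, and 0.06, -0.68, -0.52 and -0.16 with Lyve1. With the depth of the cell it was, over all class II cells, -0.21, 0.31, -0.20 and -0.52, and these cells share a library and a UMI threshold.

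Between libraries, a gene is called here when its level in the class II C1q macrophages differed at least 2-fold with at least 50 UMIs in the library with the higher level. Counts under 3 were raised to 3 for this call. The cells held 34972, 172147, 160501, 823009 and 385145 UMIs from 3 d to injured, so 50 UMIs was a lower level in CPM in a larger sum. The comparisons have no replicate, so a call describes these libraries. The 3 d library rests on 2 cells, and 114 of 371 genes were called higher at 3 w than at 3 d (30.7%) and 19 lower (5.12%), so a 2-fold difference was common. Both 3 d cells carried Cxcl2, Ccl4 and Ccr2, at 42434, 6491 and 572 CPM.

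From 3 w to 16 w, with 14 cells in each library, 64 of 547 genes were called higher (11.7%) and 53 lower (9.69%). Immediate-early and heat-shock genes were higher in 6 of 11 cases, with Hspa1b, an inducible HSP70 gene, at 436 CPM and 5128 CPM, a ratio of 11.8 (9.28 to 15.1). It had UMIs in 10 of 14 cells at 3 w and in all 14 at 16 w. The rise of Hspa1b was not particular to the class II cells. It went from 580 to 8129 CPM in low C1q macrophages and from 215 to 1063.5 CPM in stromal cells. Egr1, with 29 UMIs at 3 w, met the UMI minimum through the 16 w library alone. Chemokine genes were higher in 5 of 9 cases and none was lower. They were Ccl2, Ccl3, Ccl7, Ccl9 and Cxcl1. Ccl3 and Ccl7, with 31 and 43 UMIs at 3 w, met the UMI minimum through 16 w alone, so this count is a description. Ccl3, a chemokine of macrophages, stood at 180 and 735 CPM. At 16 w 1 cell held 74.6% of the Ccl3, 83.8% of the Ccl2 and 74.7% of the Ccl7 UMIs. Genes of the stroma went both ways, with 4 of 10 higher and 4 lower. Chad, a cartilage matrix gene, stood at 145 and 1202 CPM, and Col1a1 at 2655 and 224 CPM, and 1 cell held 71.5% of the Chad UMIs at 16 w. Ogn, a matrix proteoglycan, Cytl1, a cytokine-like protein of cartilage, and the small heat-shock gene Hspb1 were also among the 5 largest increases, and Col3a1, Aoc2, Hist1h1c and Sparc among the 5 largest decreases beside Col1a1. Single cells held much of this RNA. At 16 w 1 cell held 92.2% of the Ogn and 70.9% of the Cytl1 UMIs, and at 3 w 1 cell held 98.5% of the Aoc2, 79.1% of the Sparc, 72.2% of the Col1a1 and 66.3% of the Col3a1 UMIs.

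From 16 w to 78 w, 146 of 1344 genes were called higher (10.9%) and 34 lower (2.53%). With the larger sum at 78 w, a gene could be called higher at a smaller CPM than it needed to be called lower. Chemokine genes were higher in 6 of 13 cases (Ccl2, Ccl3, Ccl4, Ccl7, Ccl8 and Cxcl2), none was lower, and their median ratio was 1.6 beside 1.22 over all genes tested. Ccl4 and Ccl8, with 28 and 24 UMIs at 16 w, met the UMI minimum through the 78 w library alone. This count and median are therefore a description. Ccl4, a related chemokine, stood at 17.4 CPM at 3 w, 174 CPM at 16 w and 3615 CPM at 78 w, a ratio of 20.7 between the last 2 (14.3 to 31.2). At 78 w 43 of 82 cells held it, against 6 of 14 at 16 w and 1 of 14 at 3 w. Cxcl2, which draws in neutrophils, stood at 7441, 10910 and 22826 CPM, a ratio of 2.09 (1.99 to 2.2), with UMIs in 78 of 82 cells at 78 w. Ccl2, the ligand of CCR2, stood at 447, 1078 and 2556 CPM, and 83.8% of its 16 w UMIs came from 1 cell.
Interferon-response genes were higher in 2 of 4 cases, Cxcl10 and Rsad2. Both reached the UMI minimum of this comparison through the 78 w library alone, so this count is a description and not a test of the list. Rsad2, which encodes the antiviral protein viperin, had 1, 0 and 54 UMIs at 3 w, 16 w and 78 w, and 17 of 82 cells held it at 78 w. Cxcl10, a ligand of CXCR3, had 0, 2 and 179 UMIs at 3 w, 16 w and 78 w, and 18 of 82 cells held it at 78 w. Oasl1, an interferon-induced regulator that is not on this list, had 0, 0 and 227 UMIs and was at least 14.8-fold higher at 78 w than at 16 w with 3 counts set for 16 w. Both the 14 cells of 3 w and the 14 of 16 w lacked Oasl1, while 23 of 82 cells at 78 w had it. Of the resident macrophage genes, 4 of 10 were higher (Lyve1, Cbr2, Pf4 and Ccl24), with Pf4, which encodes platelet factor 4, at 885 and 2724 CPM, a ratio of 3.08 (2.6 to 3.67). Lyve1, with 45 UMIs at 16 w, met the UMI minimum through 78 w alone, so this count is likewise a description. Of 11 immediate-early genes, Fos, Fosb and Egr1 were lower and none higher. For Fos, 66.8% of the 16 w UMIs came from 1 cell, and without cells rich in stromal genes it went from 1950 and 416 CPM to 793 and 400 CPM and was no longer called. The genes Erdr1 and Aspn were among the 5 largest increases, and 49.3% of the Aspn UMIs came from 1 cell. Ogn, Chad and Ctgf were among the 5 largest decreases. Ctgf, a matrix-cell signal, changed direction when cells rich in stromal genes were left out, from 2617 and 474 CPM to 229 and 478 CPM.

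The injured library was compared with both 3 w and 16 w, the ages on either side of it, and a gene is called where it was 2-fold above both or below both. Of 1006 genes tested, 182 were called higher (18.1%) and 84 lower (8.35%). Stromal RNA moved with this comparison. The 12 stromal genes together stood at 1058, 19762, 13589, 8340 and 55179 CPM in the class II C1q macrophages from 3 d to injured, and at 46229 CPM in the low C1q macrophages and 80455 CPM in the stromal cells of the injured library. Col1a1, the most abundant of them in the injured cells, stood at 2655, 224 and 20281 CPM at 3 w, 16 w and injured, and none of the 12 was at 0. Without the cells in which stromal genes held over 5% of UMIs, 51 genes were called higher and 49 lower.
Of 5 genes with the largest increases, Xist had 0 UMIs at 3 w and 16 w and 195 in the injured cells. Pam, which amidates peptides, stood at 69.7, 243 and 4801 CPM, and at 806 CPM in the injured cells with little stromal RNA. Spry2, a feedback inhibitor of growth factor signalling, fell likewise from 262 to 39.3 CPM and Igfbp6, which binds insulin-like growth factor, from 363 to 91.7 CPM when those cells were left out. Gm26870 was at 46.5, 143 and 2973 CPM and kept 2293 CPM among the injured cells with little stromal RNA. Its rise was not particular to the class II cells. At 3 w, 16 w and injured, Gm26870 stood at 145, 107 and 4975 CPM in low C1q macrophages. In stromal cells it stood at 526, 147 and 7959 CPM. Pam likewise stood at 174, 217 and 3178 CPM in low C1q macrophages.

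The order of the class II and loading genes between the injured cells and the untreated ones depended on which cells were kept. H2-Ab1, a gene of the rule, stood at 3212, 4910 and 1480 CPM at 3 w, 16 w and injured over all cells, at 3718, 5544 and 3157 CPM in cells with little stromal RNA, and at 1380, 2415 and 2659 CPM in cells with C1q at 1000 CPM or more. Cd74 stood at 1230, 9991, 11956, 9424 and 5045 CPM from 3 d to injured. At 3 w, 16 w and injured it stood at 11607, 13284 and 10966 CPM in cells with little stromal RNA, and at 4156, 5637 and 9098 CPM with C1q at 1000 CPM or more, where the injured cells were highest. H2-DMb1 stood at 250, 243 and 177 CPM over all cells, at 290, 252 and 380 CPM with little stromal RNA, and at 82.1, 177 and 315 CPM under the C1q limit, so that the injured cells were lowest in the first and highest in the other two. H2-DMa was lowest in the injured cells each time, at 389, 455 and 80.5 CPM, at 452, 541 and 183 CPM, and at 149, 200 and 143 CPM.

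Chemokine and cytokine genes were lower in 5 of 9 cases (Ccl6, Ccl9, Cxcl1, Cxcl2 and Il1b) and higher in none, beside 8.35% of all genes tested called lower. Low C1q macrophages had Cxcl2 at 10685, 6314.5 and 1828 CPM at 3 w, 16 w and injured. Their Cxcl1 stood at 1099, 718 and 233 CPM and their Ccl6 at 136, 500 and 72.8 CPM. These 3 genes were thus lowest in the injured library there too, while Il1b was lowest at 16 w. In the class II cells the levels were as follows. Cxcl2 stood at 7441, 10910 and 3269 CPM, and in cells with little stromal RNA at 8517, 12575 and 7330 CPM, where neither Cxcl2 nor Ccl9 was called. Ccl6, a chemokine of macrophages, stood at 720, 679 and 88.3 CPM, with UMIs in 7 of 14, 12 of 14 and 19 of 76 cells. For each of these genes both untreated libraries were above the injured one, whose cells were shallower. Il1b no longer differed 2-fold under the C1q limit, at 351, 331 and 305 CPM. The NF-kappaB regulator gene Tnip3 and the long non-coding RNA gene Neat1 were also among the 5 largest decreases, at 49.3 and 353 CPM in the injured cells.

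Retnla and Lyz1 showed the largest decreases in the injured cells. Retnla had 0, 561, 644, 2718 and 0 UMIs from 3 d to injured, in 0, 4, 5, 31 and 0 cells. At 16 w 51.2% and at 78 w 31.1% of these UMIs came from 1 cell. With 3 counts set for the injured library the level was at least 418-fold lower than at 3 w and at least 515-fold lower than at 16 w. Low C1q macrophages of the injured disc had 0 UMIs of it as well, in 398 cells at 0 and 26 cells at 1 class II UMI. Lyz1, the second lysozyme gene, had 0, 473, 192, 666 and 3 UMIs, in 0, 5, 8, 27 and 2 cells, and 94.7% of its 3 w UMIs came from 1 cell. Under the C1q limit Retnla stood at 164 CPM and Lyz1 at 187 CPM at 3 w. Lyz1 and Lyz2 are near-identical copies, so reads may have been shared between them. The part of age, sex, depth and injury in these differences was not tested.

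**Figure D5:**
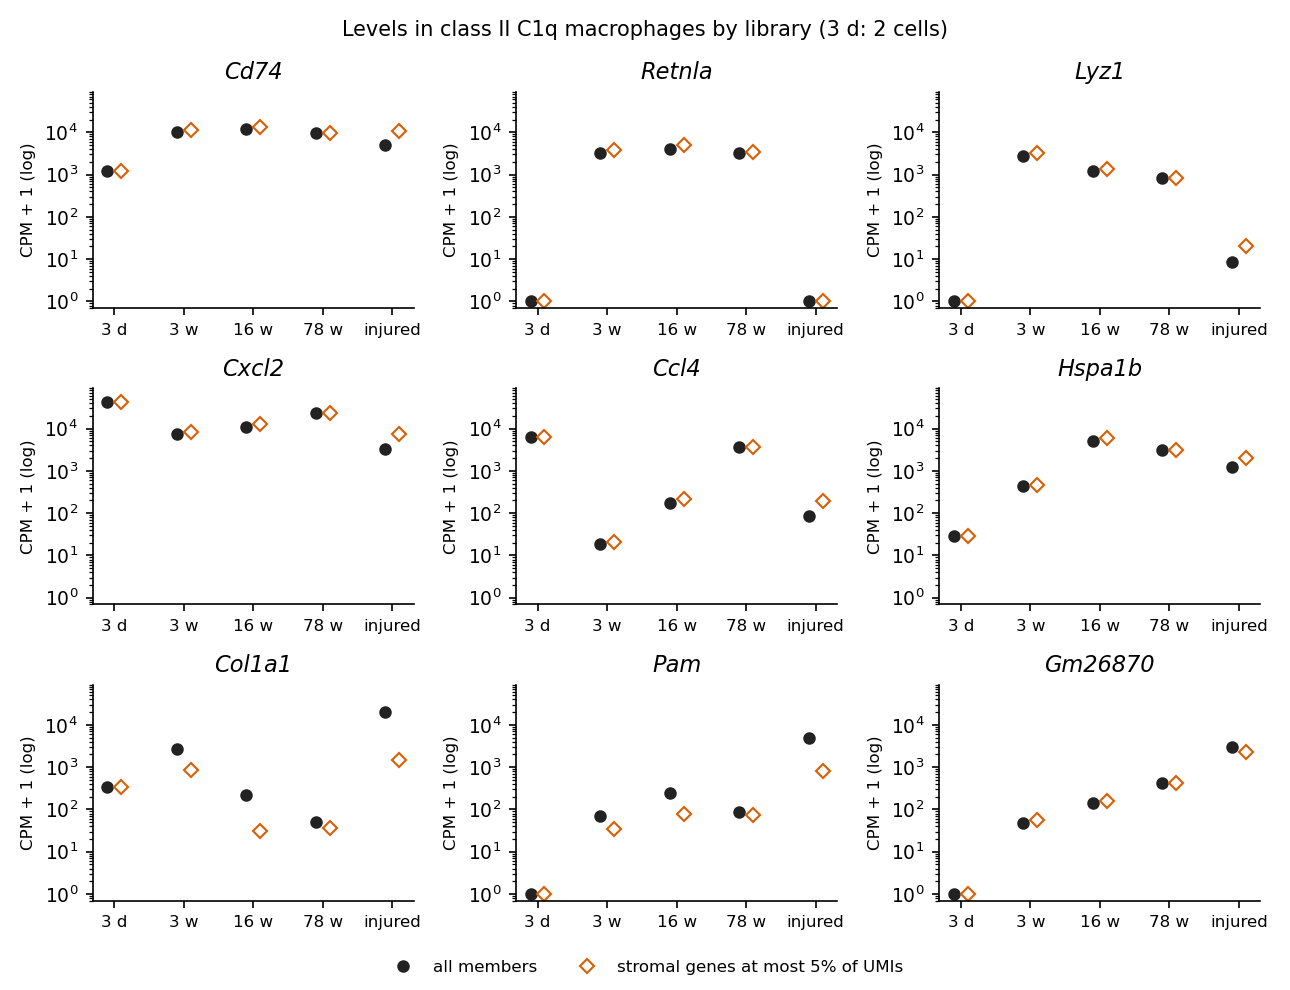
Level of 9 genes in class II C1q macrophages (CPM + 1, log axis) by library, for all cells (black) and for cells in which stromal genes held at most 5% of UMIs (orange diamonds). Retnla and Lyz1 lie at 0 to 7.79 CPM at 3 d and in the injured library for all cells, Ccl4 is at 3615 CPM at 78 w, and Col1a1 and Pam of the injured library fall to 1500 and 806 CPM under the limit.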

How the data were processed

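Droplet libraries were prepared by the authors with the 10x Chromium Single Cell 3′ v2 kit after digestion with Pronase and Collagenase P. Raw UMI counts per gene and cell were deposited, from Cell Ranger 3.1 by the submitters' processing notes (4.0.0 in the file headers) on mm10, for 27998 listed genes, of which 56 symbols are listed more than once. The deposited barcodes had already been filtered as cells. Cells with mitochondrial genes over 30% of UMIs were removed here. Doublets were not removed: Scrublet called 5 cells (0.00967%), which was taken as a failed call.

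UMIs were summed per library and class. Levels are CPM with exact Poisson intervals, shares have exact Clopper-Pearson 95% intervals, and ratios of 2 libraries have exact conditional intervals; the floor for a count of 0 is 3 counts. The class comparison used edgeR 4.0.16 (glmQLFit, glmQLFTest, TMM, filterByExpr) in R 4.3.3 on sums of at least 10 cells, with the library as a block because both classes came from the same library. The p-values measure the spread between these libraries, each of 1 condition. The step was tested on simulated data. Python 3.11.15 with numpy 2.4.6, scipy 1.17.1, pandas 2.3.3 and scanpy 1.11.5 was used elsewhere.

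Named genes were those of the rule, examples of the gene lists, the 10 smallest p in each direction of the class comparison and the 5 largest ratios in each direction between libraries. The members and the lists were chosen with earlier results of these data known. Alternatives were DESeq2 1.42.0, its size factors, other thresholds, thinning to 1000 UMIs, leaving out cells rich in stromal genes and leaving out each library. Some items are not reported here.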

Additional observations from a re-analysis of the deposited data

How the results depend on the processing

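The class comparison gave 84 genes higher and 33 lower. It gave 80 and 19 with DESeq2, 181 and 119 with no filter on low counts, 26 and 7 after thinning to 1000 UMIs (78 w and injured only), 152 and 75 with at least 6 against 0 class II UMIs (3 libraries), and 155 and 70 without cells in which stromal genes held over 5% of UMIs. Of alternatives chosen after seeing the data, it gave 114 and 43 with the 3 d library kept in, and 42 and 17 with C1q at 1000 CPM or more in each cell. Leaving out 1 library at a time gave 61 to 96 higher and 16 to 26 lower, the 16 without 3 w. Without the replicate block for library, 12 were higher and 0 lower. Of 38 named genes 26 were called with each library left out, and none of their log2 fold changes reversed in any alternative run. Named genes not called after thinning, where only 78 w and injured entered, included Stab1, Folr2, Gas6, Cd14, Wwp1, Fcgrt and Lgals3. For shares, thinning gave 0%, 0.0538%, 0.069%, 0.291% and 0.552% of retained cells from 3 d to injured, and 0%, 2.66%, 8.22% and 14.1% of C1q macrophages from 3 d to 78 w. A threshold of 1 class II UMI gave 3.45%, 11.7%, 26.9%, 45.3% and 20.4% of C1q macrophages, and one of 4 gave 24% at 78 w and 11.6% in the injured disc. A mitochondrial limit of 10% or a C1q threshold of 6 UMIs left each share of retained cells within its interval. Between libraries, thinning left 2 genes higher and 0 lower for 16 w against 3 w, 12 and 1 for 78 w against 16 w, and 21 and 0 for injured, with few UMIs left, and no value for 3 w against 3 d, where no member remained. Without cells rich in stromal genes, injured gave 51 higher and 49 lower, and 5 ratios reversed: Comp to 0.598 for 16 w against 3 w, and Col1a2 to 2.83, Comp to 1.59, Ctgf to 2.09 and Spp1 to 1.28 for 78 w against 16 w. The causes were not tested. The 3 doublet alternatives were not run, as the caller had not worked. Depth limits the injured cells most, and a count of 14 cells limits 3 w and 16 w.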
